A study of Mus musculus with 3 samples.

Results

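In mouse skeletal muscle, 62 genes were chosen because the library of aged mice fed eicosapentaenoic acid (EPA) stood apart in them from both other libraries. They came from 12966 genes whose mean over the 3 libraries of the study reached 1 CPM (counts scaled per 1000000), after the CPM of rows with the same gene symbol had been summed. The deposited CPM rest on 5 divisors that change from row to row and equal no library's total, so that they sum to 988188 in aged EPA, 1011788 in aged control and 1009954 in young. On CPM + 1, each lay at least 2-fold above, or at least 2-fold below, both other libraries, while these lay within 1.5-fold of each other. That condition held for 68 genes, or 0.524% of those compared. Of these, 6 were left out by name (Acsl1, Stx17, Xbp1, Dnajb4, Mrpl53 and Rps27rt), because the choice left out 3 named genes and 11 symbol beginnings such as those of ribosomal, mitochondrial and chaperone genes. Of the 62 genes (0.478%), 21 were higher in the aged EPA library (0.162% of compared genes) and 41 were lower (0.316%), so that 66.1% were lower. Genes apart in aged control alone or in young alone were also mostly lower, as given below. The genes were chosen by their CPM in all 3 libraries, so these levels are given as a description and carry no test.

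The aged EPA library held pooled RNA of 6 male C57BL/6J mice aged 87 weeks that had eaten a diet with 1 wt% EPA for 12 weeks, from 75 weeks of age. The aged control library held pooled RNA of 6 male C57BL/6J mice of the same age that had eaten an EPA-deprived diet over the same weeks. The young library held pooled RNA of 3 male mice aged 24 weeks, with the strain given as C57BL/7J and the diet not given. Gastrocnemius and plantaris muscles were sampled together, and each group was 1 library. No difference below therefore has an error between mice or between preparations, and between the aged libraries diet, pooled mice and library preparation cannot be told apart. Against young, age and strain label differ as well. In bulk muscle, fewer cells of a type and less RNA per cell cannot be told apart.

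EPA is a long-chain omega-3 fatty acid of fish oil. It enters membrane phospholipids, is a precursor of signalling lipids, and binds nuclear receptors of the PPAR family, which switch on genes of fatty acid use in muscle. Gastrocnemius and plantaris are mostly fast calf muscles, whose membranes are tied to the matrix by the dystrophin-glycoprotein complex and whose glucose use is set in part by phosphofructokinase. The 62 genes hold members of these systems (Dag1, Pfkfb3) beside regulators of transcription, lysosomes, protein quality control and RNA silencing.

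Sequences are shown for genes described below whose promoters held a searched motif, and for the microRNA that the noncoding RNA H19 carries. Promoters run from 250 bases before to 50 bases after the RefSeq start (GRCm38.p6), read on the strand of the gene. The first 3 hold the E-box CACGTG, the letters bound by the clock proteins CLOCK and BMAL1 and by MYC, in capitals. The fourth, from Dag1, holds a CCAAT box in capitals, the letters bound by the NF-Y complex, of which Nfya encodes a subunit. The windows of Cipc, Pfkfb3 and Gpr146 belong to starts inside the spans of these genes.
Cipc promoter, chr12:86947093-86947392, plus strand: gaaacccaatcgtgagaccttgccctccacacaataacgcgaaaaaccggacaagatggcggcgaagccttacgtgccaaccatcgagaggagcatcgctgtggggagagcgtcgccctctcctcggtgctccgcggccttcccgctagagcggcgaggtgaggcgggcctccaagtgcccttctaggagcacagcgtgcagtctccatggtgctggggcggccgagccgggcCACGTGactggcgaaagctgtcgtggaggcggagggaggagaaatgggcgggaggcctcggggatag
Pfkfb3 promoter, chr2:11502041-11502340, minus strand: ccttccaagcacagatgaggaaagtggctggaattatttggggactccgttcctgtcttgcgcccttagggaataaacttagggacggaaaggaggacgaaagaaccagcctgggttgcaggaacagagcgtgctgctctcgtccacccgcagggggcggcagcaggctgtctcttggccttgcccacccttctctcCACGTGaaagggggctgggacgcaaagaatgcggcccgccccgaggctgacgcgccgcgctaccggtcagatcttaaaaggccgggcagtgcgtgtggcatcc
Gpr146 promoter, chr5:139380389-139380688, plus strand: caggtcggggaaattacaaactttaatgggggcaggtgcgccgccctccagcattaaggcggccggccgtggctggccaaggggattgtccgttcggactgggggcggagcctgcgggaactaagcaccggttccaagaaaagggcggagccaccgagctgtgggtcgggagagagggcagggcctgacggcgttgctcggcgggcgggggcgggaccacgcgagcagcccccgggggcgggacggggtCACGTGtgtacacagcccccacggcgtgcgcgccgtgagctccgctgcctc
Dag1 promoter, chr9:108263909-108264208, minus strand: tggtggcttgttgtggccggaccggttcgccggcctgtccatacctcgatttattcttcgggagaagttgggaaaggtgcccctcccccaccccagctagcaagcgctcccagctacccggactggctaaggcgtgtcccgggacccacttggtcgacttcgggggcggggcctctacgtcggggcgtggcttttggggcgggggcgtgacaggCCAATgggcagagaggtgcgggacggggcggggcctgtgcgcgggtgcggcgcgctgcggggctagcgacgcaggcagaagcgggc
The 2 mature forms of the microRNA follow, with the seed (bases 2 to 8) in capitals, from the minus strand of chromosome 7.
mmu-miR-675-5p, chr7:142577112-142577133: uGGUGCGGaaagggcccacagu
mmu-miR-675-3p, chr7:142577078-142577099: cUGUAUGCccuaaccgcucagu

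RefSeq promoters were matched by symbol to 45 of the 62 genes, 16 higher and 29 lower, and motifs were searched on both strands with the letters given. CACGTG was in the promoters of Cipc and Pfkfb3, or 12.5% of the higher genes, and of Gpr146, or 3.45% of the lower genes, against 11.9% of 9692 compared genes with a promoter and 8.09% of all 27025 symbols in the table. CCAAT was in 8 of 16 higher and 14 of 29 lower genes (50% and 48.3%), against 42.6% of compared genes and 41.1% of all. The letters AGGTCA, bound by many nuclear receptors, were in the promoters of Endov among the higher genes and of Alg6, Gm14288, Pacsin2 and Tmem168 among the lower genes, against 14.97% of compared genes. TATAAA was found in Ccl8 (6.25% of the higher genes) and in Nfya and Tmem168 (6.90% of the lower genes), against 9.08% of compared genes. The NRF1 site was in Nnat, against 2.30% of compared genes, and TGACGTGG in Tmem230, against 1.06%. No match was found in these windows for the PPAR element of direct repeats, TCACNCCAC, TGACGTCA or TCAAGGTCA, which are in 0.031%, 1.41%, 3.58% and 0.31% of compared promoters. At such shares 45 promoters would hold few matches or none, so no conclusion is drawn from the absence of these elements. With so few genes, each of these shares moves by several percent with 1 gene.

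Most of the genes lay close to the 2-fold limit on CPM + 1, where the added 1 shrinks the distance of genes with low values. Lenep, for example, had a log2 change of -1.53 against aged control on CPM + 1 and a log2 count ratio of -6.77. A mean under 5 CPM was found for 24 of the 62 genes. On CPM + 1, 44 of 62 lay between 2- and 3-fold from the nearer of the other libraries, and 12 lay at least 4-fold away, 2 of them higher and 10 lower. The median log2 change of the 21 higher genes was 1.39 against aged control and 1.53 against young, and that of the 41 lower genes was -1.48 against aged control and -1.53 against young, with genes listed at 0 placed by the added 1. Over all compared genes the medians were -0.03 against aged control and -0.04 against young, and 96.4% lay within 1.5-fold of aged control. Both of these changes rest on the same aged EPA library, and the closeness of aged control and young was part of the choice. For 34 of the 62 genes aged control and young lay within 1.1-fold of each other. Past 2-fold of aged control, whatever their level in young, were 90 genes on the higher side (0.694%) and 83 on the lower side (0.64%). Past 2-fold of young were 104 (0.802%) and 104 (0.802%). The same condition for the other libraries gave 72 genes apart in aged control alone (0.555%) and 88 apart in young alone (0.679%) before names were left out. Of these, 22 were higher and 50 lower in aged control, and 30 were higher and 58 lower in young. For aged EPA, 22 were higher and 46 lower before names were left out. The aged EPA library was thus not set apart by the number of such genes or by the larger part that was lower.

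**Figure D1:**
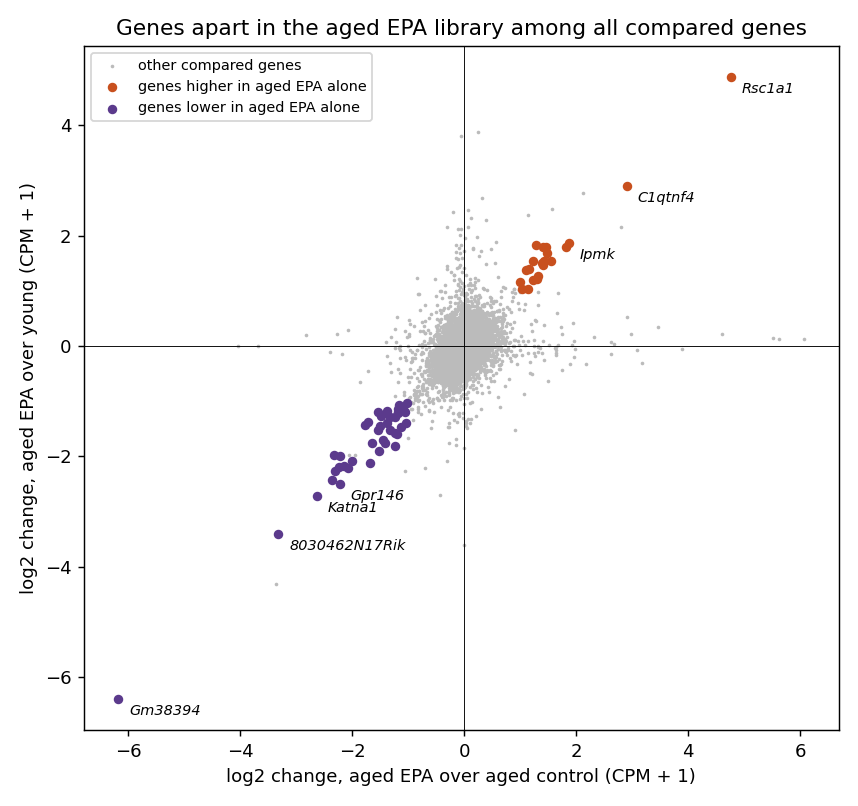
Log2 change of CPM + 1 in aged EPA over aged control (horizontal) and over young (vertical) for every compared gene, with 1 pooled library per group. The 62 chosen genes lie along the diagonal, 21 at the upper right and 41 at the lower left, with Rsc1a1 and Gm38394 at its ends; both axes share the aged EPA library, and genes listed at 0 in a library are placed by the added 1.

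Depth was 55969822 counts in aged EPA, 57622886 in aged control and 57386394 in young, so that 3 counts, the floor used here, equal 0.0536 CPM in aged EPA, 0.0521 CPM in aged control and 0.0523 CPM in young. The muscle identity of all 3 libraries was as labelled. All 18 muscle genes of a list that includes Acta1, Ckm and Myh4 were present, with the lowest at 1578 CPM in aged EPA, 2051 CPM in aged control and 1638 CPM in young. Of 68 compared markers of 10 other cell types and tissues, 67 lay within 1.5-fold between aged EPA and aged control. The exception was the fibroblast marker Ly6a, at 49.3 CPM in aged EPA, against 21.3 CPM in aged control and 60.7 CPM in young. Red cell markers had summed levels of 566 CPM in aged EPA, 561 CPM in aged control and 1509 CPM in young. Of the liver markers, 4 of 6 were listed at 0 in each library.

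On the higher side were Pfkfb3, of glycolysis, and Slc19a2, of thiamine uptake. Pfkfb3 encodes the enzyme that makes the fructose bisphosphate which activates phosphofructokinase and so glycolysis (ENSMUSG00000026773, chr2:11471433-11554077). It stood at 152 CPM in aged EPA, against 61.7 CPM in aged control and 42.1 CPM in young, a log2 change of 1.29 against aged control and 1.83 against young on CPM + 1. The log2 ratio of counts against aged control was 1.37, 95% counting interval 1.32 to 1.43. Pfkfb3 had the largest gap between aged control and young among the 21 higher genes and lay near the 1.5-fold limit of the choice. The other 8 compared genes of phosphofructokinase and its regulators lay within 1.5-fold between aged EPA and aged control. They included Pfkfb1 at 50.03 CPM in aged EPA, 47.4 in aged control and 56.04 in young, Pfkfb4 at 52.5 CPM in aged EPA, 49.8 in aged control and 60.9 in young and the muscle phosphofructokinase gene Pfkm at 3234 CPM in aged EPA, 3208 in aged control and 2662 in young. Slc19a2, which encodes a thiamine transporter, stood at 7.94 CPM in aged EPA, against 3.06 CPM in aged control and 3.35 CPM in young, while Slc19a1, a folate transporter of the same family, stood at 5.64 CPM in aged EPA, 4.84 in aged control and 4.49 in young.

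A clock gene, Cipc, was on the higher side. It encodes a repressor that binds CLOCK (ENSMUSG00000034157, chr12:86947043-86965362). It stood at 47.4 CPM in aged EPA, against 17.05 CPM in aged control and 15.7 CPM in young, with log2 changes of 1.42 against aged control and 1.53 against young and a log2 count ratio against aged control of 1.54, 95% counting interval 1.44 to 1.65. Of the other 19 compared clock genes, 18 lay within 1.5-fold of aged control, among them Per1 at 97.04 CPM in aged EPA, 97.3 in aged control and 69.7 in young, and Nr1d1 at 219 CPM in aged EPA, 176 in aged control and 223 in young. The exception was Npas2, a relative of Clock, at 0.801 CPM in aged EPA, 1.84 in aged control and 2.05 in young. Hours of sampling were not given in the sources used here.

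Esr1, the gene of oestrogen receptor alpha, stood at 24.1 CPM in aged EPA, against 8.41 CPM in aged control and 6.21 CPM in young (ENSMUSG00000019768, chr10:4611593-5005614), with log2 changes of 1.42 against aged control and 1.80 against young. All mice were male. Among 10 other compared receptors and cofactors, Ncoa3, a coactivator, was the 1 gene beyond 1.5-fold of aged control, at 31.3 CPM in aged EPA, 17.9 in aged control and 35.4 in young, and there the aged control library was the low one. The related receptor gene Esrra stood at 74.1 CPM in aged EPA, 71.8 in aged control and 68.2 in young. Zfp62, a zinc finger gene, stood at 18.5 CPM in aged EPA, against 6.10 CPM in aged control and 4.64 CPM in young.

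The regulators of transcription that were lower included Creb1, which encodes the cyclic AMP response factor, at 3.603 CPM in aged EPA, against 9.87 CPM in aged control and 15.3 CPM in young. Its log2 changes were -1.24 against aged control and -1.82 against young, and its gap between aged control and young was the widest of all chosen genes at 1.496-fold. The family members Atf1 and Crem stood at 39.2 CPM in aged EPA, 40.2 in aged control and 43.01 in young, and at 4.85 CPM in aged EPA, 6.49 in aged control and 6.78 in young. Nfya, the subunit of NF-Y that touches the CCAAT box, stood at 0.992 CPM in aged EPA, against 3.95 CPM in aged control and 4.72 CPM in young (log2 -1.31 against aged control and -1.52 against young). The other subunits showed no such gap, with Nfyb at 18.5 CPM in aged EPA, 21.9 in aged control and 19.8 in young, and Nfyc at 35.5 CPM in aged EPA, 29.9 in aged control and 41.1 in young. Foxp1, a forkhead repressor gene, stood at 6.17 CPM in aged EPA, against 15.03 CPM in aged control and 14.1 CPM in young, and Tshz2, a zinc finger homeobox gene, at 9.16 CPM in aged EPA, against 21.3 CPM in aged control and 27.2 CPM in young. Pygo2, which links beta-catenin to chromatin, stood at 4.54 CPM in aged EPA, against 11.6 CPM in aged control and 11.8 CPM in young, while its paralogue Pygo1 stood at 20.8 CPM in aged EPA, 21.7 in aged control and 20.4 in young, and the beta-catenin gene Ctnnb1 at 184 CPM in aged EPA, 191 in aged control and 179.7 in young.

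**Figure D2:**
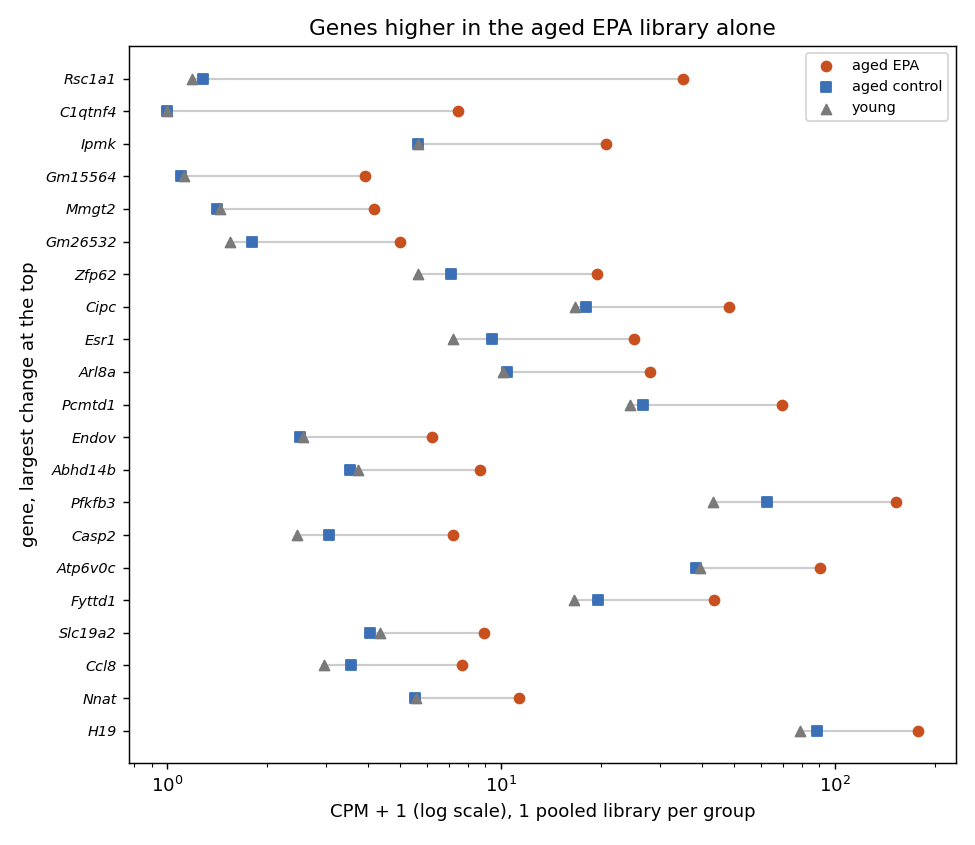
CPM + 1 (log scale) of the 21 genes higher in aged EPA, with a circle for aged EPA, a square for aged control and a triangle for young, 1 pooled library each. In every row the circle lies to the right of the other symbols; for Rsc1a1 and C1qtnf4 it stands far from them, and for H19 the distance is 2.003-fold.

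Also higher were Atp6v0c and Arl8a, whose proteins act at lysosomes. Atp6v0c encodes the subunit that forms the proton-carrying ring of the vacuolar proton pump, which acidifies lysosomes. It stood at 89.3 CPM in aged EPA, against 37.5 CPM in aged control and 38.4 CPM in young (ENSMUSG00000024121, chr17:24163866-24169702), with log2 changes of 1.23 against aged control and 1.19 against young. All other 16 compared subunits of the pump lay within 1.5-fold of aged control, for example Atp6v0b at 36.6 CPM in aged EPA, 41.3 in aged control and 36.7 in young, and Atp6v1a at 26.4 CPM in aged EPA, 31.7 in aged control and 28.6 in young. Arl8a encodes a small GTPase that couples lysosomes to kinesin motors. Its level was 26.9 CPM in aged EPA, against 9.48 CPM in aged control and 9.14 CPM in young, with log2 changes of 1.41 against aged control and 1.46 against young, whereas its close relative Arl8b stood at 121 CPM in aged EPA, 120.2 in aged control and 112 in young. The other 11 compared genes of lysosome positioning, Arl8b included, lay within 1.5-fold of aged control.

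Among enzymes of signalling and repair, Ipmk was furthest from both other libraries after Rsc1a1 among the higher genes whose mean reached 3 CPM. It encodes a kinase that makes higher inositol phosphates (ENSMUSG00000060733, chr10:71347763-71433327). It stood at 19.7 CPM in aged EPA, against 4.65 CPM in aged control and 4.66 CPM in young, with a log2 change of 1.87 against both and a log2 count ratio against aged control of 2.09, 95% counting interval 1.89 to 2.29. The other 9 compared inositol phosphate kinase genes lay within 1.5-fold of aged control, with Ip6k3 at 49.8 CPM in aged EPA, 48.4 in aged control and 46.6 in young. Pcmtd1 encodes a relative of the methyltransferase that mends aged aspartyl residues, and stood at 68.6 CPM in aged EPA, against 25.6 CPM in aged control and 23.4 CPM in young (log2 1.39 against aged control and 1.51 against young). That enzyme's own gene, Pcmt1, stood at 50.7 CPM in aged EPA, 5.53 in aged control and 43.7 in young, so that there the aged control library was the low one. Endov encodes a nuclease that cuts RNA at inosine and stood at 5.22 CPM in aged EPA, against 1.499 CPM in aged control and 1.57 CPM in young. Casp2, a caspase of cell death and stress signalling, stood at 6.19 CPM in aged EPA, against 2.05 CPM in aged control and 1.46 CPM in young, and Abhd14b, a hydrolase gene, at 7.69 CPM in aged EPA, against 2.53 CPM in aged control and 2.74 CPM in young. Fyttd1, which encodes an adaptor for mRNA export from the nucleus, stood at 42.5 CPM in aged EPA, against 18.6 CPM in aged control and 15.6 CPM in young. Mmgt2, named as a membrane magnesium transporter, stood at 3.18 CPM in aged EPA, against 0.418 CPM in aged control and 0.443 CPM in young, while Mmgt1 stood at 46.9 CPM in aged EPA, 43.8 in aged control and 46.5 in young.

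H19 and Nnat are imprinted, that is, read from 1 parental copy. H19 is a long noncoding RNA next to Igf2 that muscle keeps making after birth, and it carries the microRNA shown above. It stood at 177 CPM in aged EPA, against 87.7 CPM in aged control and 78.01 CPM in young (ENSMUSG00000000031, chr7:142575529-142578143), with log2 changes of 1.00 against aged control and 1.17 against young, the gene nearest to the 2-fold limit on the higher side. Igf2 itself stood at 23.9 CPM in aged EPA, 26.98 in aged control and 26.6 in young. The separate entry of Mir675 was at 0.0354 CPM in aged EPA, 0.0347 CPM in aged control and 0.0354 CPM in young, under the floor of 3 counts in each library. Nnat encodes neuronatin, a small protein of the endoplasmic reticulum, and stood at 10.3 CPM in aged EPA, against 4.55 CPM in aged control and 4.56 CPM in young. Blcap, which lies across Nnat on the opposite strand, stood at 35.7 CPM in aged EPA, 33.1 CPM in aged control and 36.6 CPM in young. The other 18 compared imprinted genes lay within 1.5-fold of aged control. Against young, 3 of them were lower by at least 1.5-fold, namely Meg3, Rian and Slc38a4, and in each the aged control library was below young as well.

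A receptor, a surface protein and a membrane-bending protein were encoded by genes on the lower side. On CPM + 1, among lower genes with a descriptive symbol and a value above 0 in each library, Gpr146 lay furthest from the nearer of the other libraries. By count ratio, genes with fewer counts, such as Tnxa and Ifit2, lay further. Gpr146 encodes a G protein-coupled receptor that in mouse liver sets the level of cholesterol in blood (ENSMUSG00000044197, chr5:139377697-139396415). It stood at 10.97 CPM in aged EPA, against 54.7 CPM in aged control and 66.4 CPM in young, with log2 changes of -2.22 against aged control and -2.49 against young and a log2 count ratio against aged control of -2.25, 95% counting interval -2.38 to -2.13. The other 17 compared receptors of its list lay within 1.5-fold of aged control, such as S1pr1 at 59.8 CPM in aged EPA, 70.2 in aged control and 76.2 in young. Cd59a, which protects cells from the complement attack complex, stood at 9.55 CPM in aged EPA, against 23.7 CPM in aged control and 30.4 CPM in young, while its copy Cd59b stood at 3.82 CPM in aged EPA, 2.44 in aged control and 3.37 in young. Pacsin2, which bends membranes at caveolae, stood at 24.9 CPM in aged EPA, against 63.4 CPM in aged control and 62.3 CPM in young, and the muscle form Pacsin3 at 177 CPM in aged EPA, 168 in aged control and 146 in young. Among transmembrane genes with little known function, Tmem8b stood at 6.42 CPM in aged EPA, against 19.6 CPM in aged control and 16.9 CPM in young, and Tmem168 at 4.21 CPM in aged EPA, against 12.9 CPM in aged control and 16.7 CPM in young. Tmem230, a gene of vesicle transport, stood at 8.86 CPM in aged EPA, against 22.1 CPM in aged control and 23.1 CPM in young.

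Dag1 encodes dystroglycan, which joins the matrix to dystrophin in the muscle fibre membrane (ENSMUSG00000039952, chr9:108204634-108263958). It stood at 148 CPM in aged EPA, against 299 CPM in aged control and 302 CPM in young. Its log2 changes were -1.02 against aged control and -1.03 against young, the smallest on the lower side, and the log2 count ratio against aged control was -1.01, 95% counting interval -1.05 to -0.98. Under median-of-ratios or TMM scaling both log2 changes were -0.99, short of the 2-fold limit, and Dag1 was no longer among the chosen genes. Of the other 26 compared genes of the complex and of dystroglycan glycosylation, 25 lay within 1.5-fold of aged control. Dmd, the dystrophin gene, stood at 41.3 CPM in aged EPA, 49.7 in aged control and 39.7 in young, and the sarcoglycan gene Sgca at 199 CPM in aged EPA, 174 in aged control and 187 in young. Lama2, the laminin chain that dystroglycan binds, stood at 60.6 CPM in aged EPA, 52.03 in aged control and 48.98 in young.

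**Figure D3:**
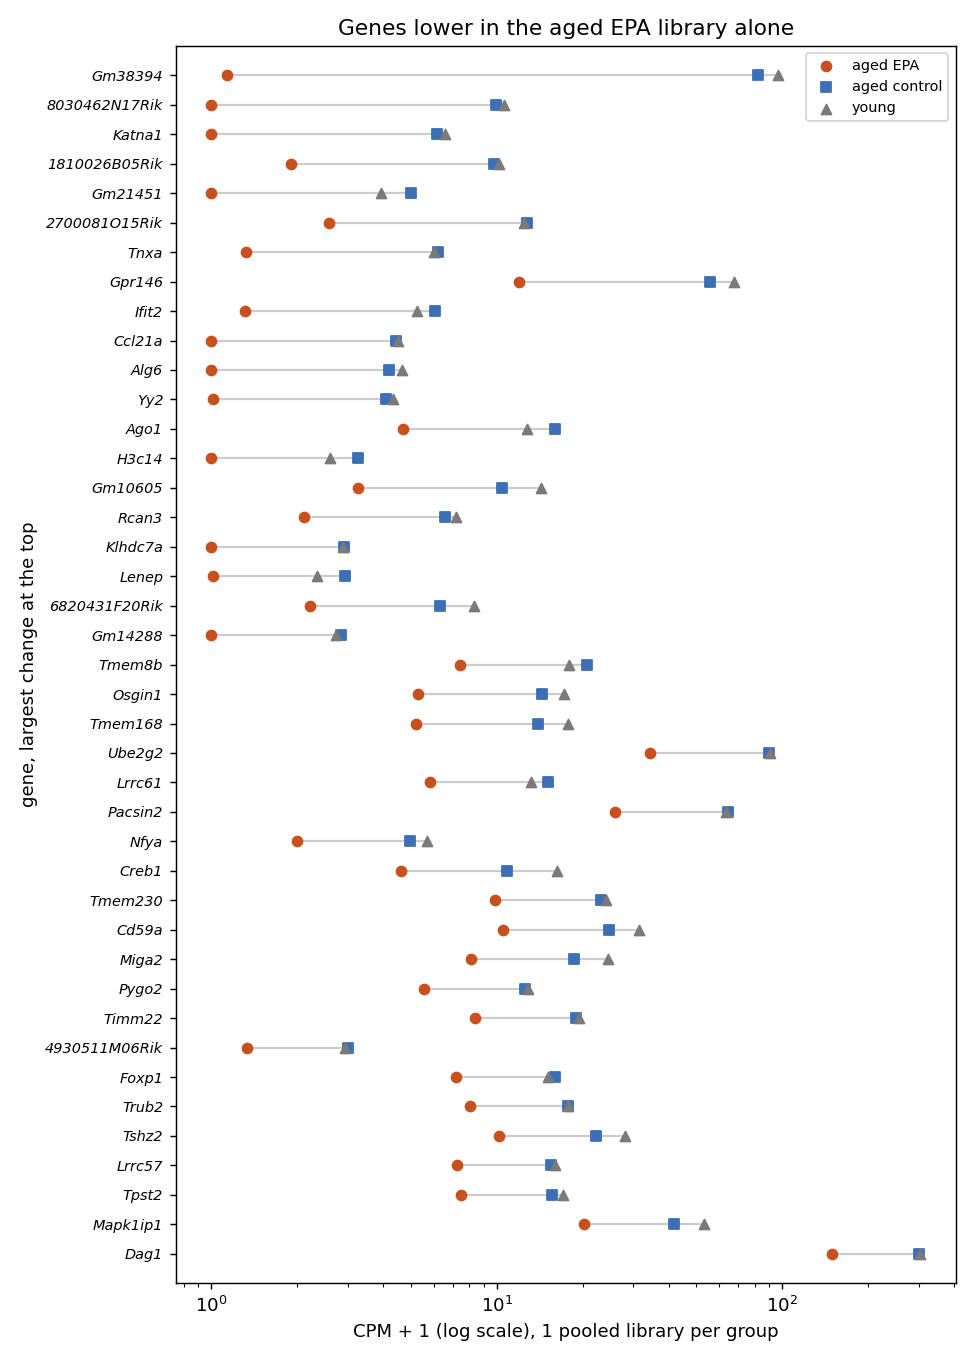
CPM + 1 (log scale) of the 41 genes lower in aged EPA, drawn as in the plot of the higher genes. The circle of aged EPA lies to the left in every row, and 8 genes sit at 1 because they are listed at 0 in aged EPA.

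Also lower were Ube2g2, Alg6 and Tpst2, each the 1 chosen gene of its list. Ube2g2 encodes a ubiquitin-conjugating enzyme that marks misfolded proteins of the endoplasmic reticulum for breakdown. It stood at 33.4 CPM in aged EPA, against 88.6 CPM in aged control and 89.7 CPM in young (ENSMUSG00000009293, chr10:77622275-77645993), with log2 changes of -1.38 against aged control and -1.40 against young. Its paralogue Ube2g1 stood at 129 CPM in aged EPA, 127 in aged control and 137 in young, the ligase gene Syvn1 at 32.2 CPM in aged EPA, 31.96 in aged control and 34.3 in young, and all 10 other compared genes of this degradation pathway lay within 1.5-fold of aged control. Alg6, which adds the first glucose to the sugar chain for N-glycans, was listed at 0 CPM in aged EPA, against 3.20 CPM in aged control and 3.64 CPM in young. The other 12 compared genes of that assembly line lay within 1.5-fold, with Alg8, the next glucosyltransferase, at 3.37 CPM in aged EPA, 2.49 in aged control and 3.97 in young. Tpst2, which sulfates tyrosines of secreted proteins, stood at 6.51 CPM in aged EPA, against 14.6 CPM in aged control and 16.1 CPM in young, while Tpst1 stood at 10.4 CPM in aged EPA, 9.44 in aged control and 11.02 in young.

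Mitochondrial genes among the lower ones were Timm22, Miga2 and Trub2. Timm22 encodes the channel that inserts carrier proteins into the inner membrane and stood at 7.39 CPM in aged EPA, against 17.96 CPM in aged control and 18.3 CPM in young. The other 17 compared import genes lay within 1.5-fold of aged control, with Timm23 at 119 CPM in aged EPA, 118 in aged control and 131 in young. Miga2, which promotes mitochondrial fusion and contact with lipid droplets, stood at 7.12 CPM in aged EPA, against 17.7 CPM in aged control and 23.4 CPM in young, and its paralogue Miga1 at 12.05 CPM in aged EPA, 11.5 in aged control and 10.3 in young. Trub2, which encodes a pseudouridine synthase of mitochondrial RNA, stood at 7.04 CPM in aged EPA, against 16.8 CPM in aged control and 16.7 CPM in young.

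RNA silencing was represented by Ago1, an Argonaute gene, whose protein holds small RNAs against their targets (ENSMUSG00000041530, chr4:126435012-126468583). It stood at 3.69 CPM in aged EPA, against 14.96 CPM in aged control and 11.7 CPM in young. Its log2 changes were -1.77 against aged control and -1.44 against young, with 213 counts in aged EPA, 846 in aged control and 656 in young. The other 12 compared genes of the list lay within 1.5-fold of aged control, with Ago2 at 65.7 CPM in aged EPA, 70.6 in aged control and 62.7 in young, Ago3 at 13.02 CPM in aged EPA, 15.05 in aged control and 15.4 in young, and Ago4 at 6.64 CPM in aged EPA, 6.33 in aged control and 6.49 in young. Rcan3, an inhibitor of the phosphatase calcineurin, stood at 1.12 CPM in aged EPA, against 5.58 CPM in aged control and 6.17 CPM in young (log2 -1.64 against aged control and -1.76 against young). Its relatives stood at 116 CPM in aged EPA, 129.8 in aged control and 165 in young for Rcan1 and at 58.9 CPM in aged EPA, 62.1 in aged control and 61.6 in young for Rcan2, and no other gene of the calcineurin list lay beyond 1.5-fold of aged control. Osgin1, a gene induced by oxidative stress, stood at 4.28 CPM in aged EPA, against 13.3 CPM in aged control and 16.2 CPM in young (log2 -1.44 against aged control and -1.70 against young). Of genes with leucine-rich repeats, Lrrc57 stood at 6.27 CPM in aged EPA, against 14.5 CPM in aged control and 14.98 CPM in young, and Lrrc61 at 4.81 CPM in aged EPA, against 14.1 CPM in aged control and 12.1 CPM in young. Mapk1ip1 stood at 19.2 CPM in aged EPA, against 40.6 CPM in aged control and 52.04 CPM in young.

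Of genes with immune roles, Ccl8 was on the higher side, and Ccl21a and Ifit2 were on the lower side. Ccl8, a chemokine that draws monocytes, stood at 6.68 CPM in aged EPA, against 2.57 CPM in aged control and 1.97 CPM in young. Ccl21a, a chemokine that guides cells into lymphatic vessels and lymph nodes, was listed at 0 CPM in aged EPA, against 3.44 CPM in aged control and 3.499 CPM in young. Its symbol stands for 2 gene identifiers in the tables and belongs to a cluster of near-identical copies, so that its reads cannot be placed with certainty. Of 11 other compared chemokine genes, 10 lay within 1.5-fold of aged control, and Cxcl13 stood at 4.105 CPM in aged EPA, 2.09 in aged control and 1.47 in young. Ifit2, an interferon-induced gene, stood at 0.313 CPM in aged EPA, against 5.07 CPM in aged control and 4.25 CPM in young (log2 -2.21 against aged control and -2.00 against young). The other 9 compared interferon-induced genes lay within 1.5-fold of aged control, with Ifit3 at 4.02 CPM in aged EPA, 4.17 in aged control and 4.02 in young. Summed over 10 macrophage markers, levels were 272 CPM in aged EPA, 262 CPM in aged control and 241 CPM in young. Lymphocyte markers summed to 11.4 CPM in aged EPA, 10.3 CPM in aged control and 2.73 CPM in young. Most of the sum in the aged libraries was the antibody gene Igkc, at 8.51 CPM in aged EPA, 8.02 in aged control and 0.728 in young. Other lymphocyte markers did not share this order. Cd79a, at 0.139 CPM in aged EPA, 0.336 in aged control and 0.553 in young, was highest in young, as were Cd79b and Ms4a1. Cd3e and Cd4 were highest in aged EPA, at under 1 CPM. Of their 10 genes, 1 was listed at 0 in aged EPA (Cd3d), 4 in aged control (among them Cd3d, Cd8a and Ms4a1) and 2 in young (Cd3e and Cd3d). The part of these cells in the levels of Ccl8 and Ifit2 was not tested.

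**Figure D4:**
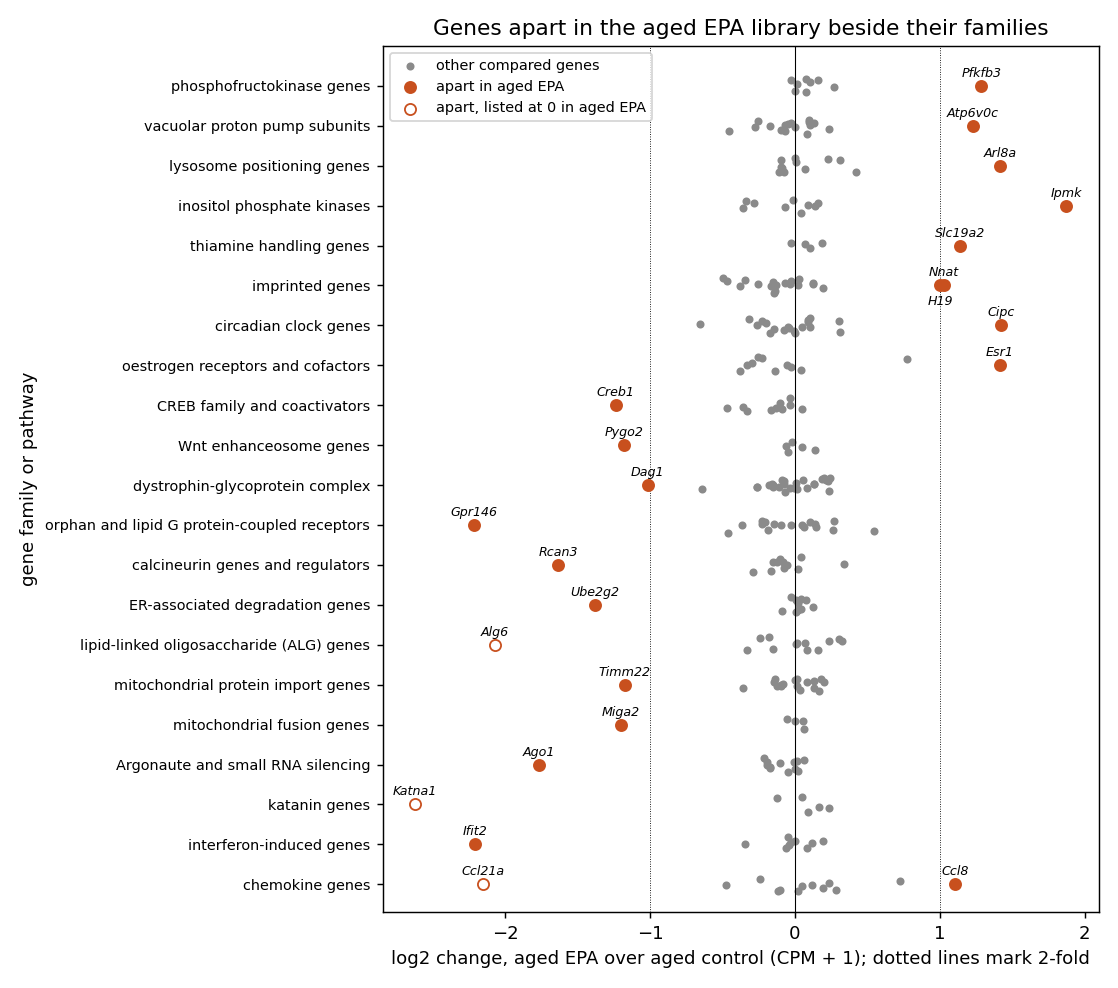
Log2 change of CPM + 1 in aged EPA over aged control for chosen genes (large circles, labelled; open where the gene is listed at 0 in aged EPA) and for the other compared genes of their family or pathway (small grey points), 1 row per list. The grey points cluster around 0, and the large circles lie beyond the dotted 2-fold lines because that was the condition for choosing them.

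Most families were put together after the 62 genes were known, and the other 8 lists, those of Ago1 and Gpr146 among them, were chosen with earlier results of these data known. They describe only where related genes stood. Over the 26 lists made later, 233 other genes were compared. Of these, 6 (2.58%) lay at least 1.5-fold from aged control (among them C1qtnf5, Cxcl13, Ncoa3, Npas2 and Pcmt1), beside 3.6% of all compared genes. Against young, 18 (7.73%) lay at least 1.5-fold away, beside 5.36% of all compared genes. Over the 8 earlier lists, 134 other genes were compared, and 7 (5.22%) lay at least 1.5-fold from aged control. At least 2-fold away were 5 of them (3.73%), namely H2ac18, Mgat1, Mier1, Nfe2l1 and Zc3h11a, beside 1.33% of all compared genes. Against young, 8 of the 134 (5.97%) lay at least 1.5-fold away.

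A list of 50 genes that sense or handle omega-3 fatty acids held none of the 62 genes, and 45 of them were compared. Its median log2 change was -0.03 against aged control, beside -0.03 over all compared genes. Among those at least 1.5-fold from aged control was Ppara, the fatty acid receptor, at 6.997 CPM in aged EPA, 11.1 in aged control and 6.64 in young. Its level in aged EPA lay close to that in young. Acsl1, which activates fatty acids and was left out of the 62 by name, stood at 126 CPM in aged EPA, against 327 CPM in aged control and 377 CPM in young.

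Several of the 62 genes share exons with another gene, so that the assignment of their reads is uncertain. The strand setting of the counting was not given in the sources used here. Overlap of exons on the same strand, small RNAs left aside, was found for 8 of the 62 genes (12.9%) and for 557 of 12966 compared genes (4.30%). Rsc1a1, named for a regulator of a sugar transporter, is a gene of a single exon (ENSMUSG00000040715, chr4:141683851-141685599, minus strand), and 100% of its 1749 exonic bases belong also to exons of Ddi2. It stood at 34.04 CPM in aged EPA, against 0.286 CPM in aged control and 0.191 CPM in young, and Ddi2, a protease of the ubiquitin pathway, stood at 64.9 CPM in aged EPA, 68.3 CPM in aged control and 52.5 CPM in young. The sum of both was 98.9 CPM in aged EPA, 68.6 CPM in aged control and 52.6 CPM in young, so that the sum too was highest in aged EPA.

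Gm38394 showed the widest difference of all (ENSMUSG00000094410, chr1:133619940-133661318, minus strand). It had 8 counts in aged EPA, 4581 in aged control and 5347 in young, or 0.139 CPM in aged EPA, against 81.0 CPM in aged control and 95.4 CPM in young. It shares 4392 exonic bases, 43.2% of its own, with the zinc finger gene Zc3h11a. That gene stood at 83.8 CPM in aged EPA, 11.2 CPM in aged control and 17.9 CPM in young, the opposite order. The sum of both was 83.9 CPM in aged EPA, 92.2 CPM in aged control and 113 CPM in young, and differed far less than either gene. The part of read assignment in this pair was not tested.

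Some of the other genes that share exons with a partner were at or near 0 in aged EPA while the partner was not. Yy2, a retroposed relative of the transcription factor gene Yy1, lies wholly in exons of Mbtps2. It had 1 count in aged EPA, 174 in aged control and 187 in young, a log2 count ratio against aged control of -7.40, 95% counting interval -12.71 to -4.90, and Mbtps2 stood at 17.3 CPM in aged EPA, 19.4 CPM in aged control and 17.9 CPM in young. Lenep, a lens gene, shares 99.1% of its exonic bases with Flad1 and had 1 count in aged EPA, 112 in aged control and 76 in young (log2 count ratio against aged control -6.77, 95% counting interval -12.08 to -4.26). Flad1 stood at 37.3 CPM in aged EPA, 31.8 CPM in aged control and 37.2 CPM in young. The histone gene H3c14 was listed at 0 CPM in aged EPA, against 2.27 CPM in aged control and 1.61 CPM in young, and the transcript Gm20634, which holds all its exonic bases, stood at 7.44 CPM in aged EPA, 4.69 CPM in aged control and 6.34 CPM in young. The histone gene H2ac18, 602 bases away on the same strand, was also listed at 0 CPM in aged EPA, against 9.24 CPM in aged control and 18.95 CPM in young. It was not among the 62 genes, since aged control and young differed by more than 1.5-fold. The noncoding gene 1810026B05Rik shares 30.5% of its exonic bases with Chd2 and stood at 0.902 CPM in aged EPA, against 8.76 CPM in aged control and 9.21 CPM in young, while Chd2 stood at 28.8 CPM in aged EPA, 29.7 CPM in aged control and 26.3 CPM in young. Foxp1, which was not near 0 in aged EPA, shares 2.18% with Gm20696, which stood at 2.56 CPM in aged EPA, 0.974 CPM in aged control and 0.815 CPM in young. The sum of Foxp1 and Gm20696 was 8.73 CPM in aged EPA, 16.0 CPM in aged control and 14.9 CPM in young, so that this sum too was lowest in aged EPA. A partner that differed the opposite way by 1.5-fold or more was thus found for Gm38394 and Foxp1, or 3.23% of the 62 genes, and for 0.918% of all compared genes.

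**Figure D5:**
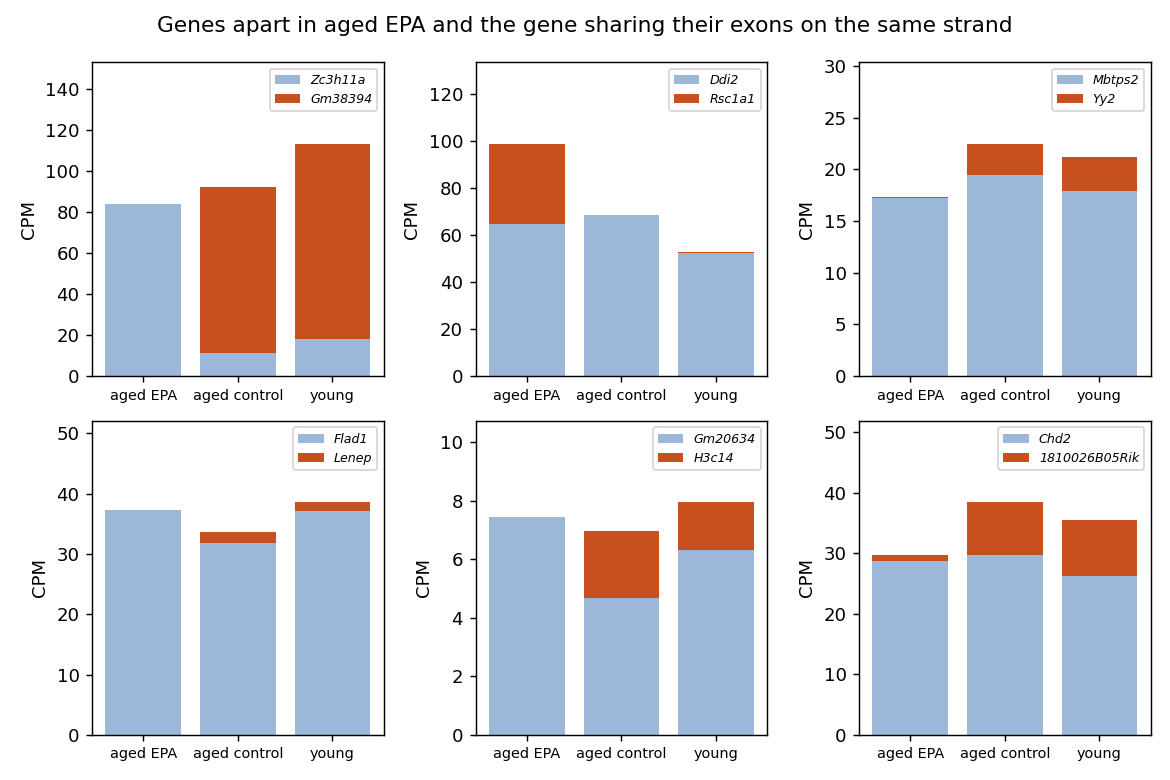
Stacked bars of CPM for 6 of the 62 genes (orange) on top of the gene that shares their exons on the same strand (blue), in aged EPA, aged control and young. The total of Gm38394 and Zc3h11a was 83.9 CPM in aged EPA, 92.2 CPM in aged control and 113 CPM in young while the split between them was reversed, and for Rsc1a1 the orange part appears almost wholly in aged EPA.

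On either strand, the span of another gene overlapped 36 of the 62 genes (58.1%), beside 47.3% of compared genes. On the opposite strand, 17 compared genes overlap 15 of the 62 genes, a share that was not counted over all compared genes. Of these 17 partners, 15 lay within 1.5-fold between aged EPA and aged control, beside 96.4% of all compared genes. The exceptions were Kpna1 and Gm16867. Kpna1, across which Gm15564 lies, stood at 195.4 CPM in aged EPA, 50.5 CPM in aged control and 193 CPM in young. Gm15564 itself stood at 2.92 CPM in aged EPA, against 0.104 CPM in aged control and 0.124 CPM in young. Gm16867, which overlaps the pseudogene Gm21451, stood at 1.98 CPM in aged EPA, 4.49 CPM in aged control and 2.30 CPM in young.

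In aged EPA, 8 of the 62 genes (12.9%) were listed at 0, namely Katna1, Alg6, Ccl21a, H3c14, Klhdc7a, Gm14288, Gm21451 and 8030462N17Rik. Over all compared genes, 12 (0.0925%) were at 0 in aged EPA. A compared gene at 0 in aged EPA whose other libraries lie within 1.5-fold meets the 2-fold condition by construction, so the larger share follows from the choice. Over all compared genes, 9 were at 0 in aged EPA only, 9 in aged control only and 3 in young only. Katna1, which encodes the cutting subunit of the microtubule enzyme katanin, was listed at 0 CPM in aged EPA, against 5.16 CPM in aged control and 5.57 CPM in young, with 289 counts in aged control and 320 in young. The other 5 compared genes of its family lay within 1.5-fold of aged control. Katna1 and Alg6 are used by most cells, so these genes are described only as listed at 0, with no fold. Klhdc7a, which encodes a protein with kelch repeats, was listed at 0 CPM in aged EPA, against 1.91 CPM in aged control and 1.89 CPM in young, and the uncharacterised gene 8030462N17Rik at 0 CPM in aged EPA, against 8.96 CPM in aged control and 9.62 CPM in young. In the other direction C1qtnf4, a secreted relative of adiponectin, stood at 6.48 CPM (372 counts) in aged EPA and was listed at 0 in aged control and in young. Of 8 other compared relatives, 7 lay within 1.5-fold of aged control, with Adipoq at 18.4 CPM in aged EPA, 15.9 in aged control and 16.8 in young.

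Tnxa is a truncated pseudogene copy of Tnxb, the matrix gene of tenascin X, and its reads can match that gene. It stood at 0.318 CPM in aged EPA, against 5.23 CPM in aged control and 5.03 CPM in young, while Tnxb stood at 154 CPM in aged EPA, 159.8 in aged control and 122 in young. The remaining 7 genes carry only a clone or model name. Gm26532 stood at 4.004 CPM in aged EPA, against 0.797 CPM in aged control and 0.548 CPM in young. 2700081O15Rik was listed at 1.57 CPM in aged EPA, against 11.8 CPM in aged control and 11.5 CPM in young, and Gm10605 at 2.27 CPM in aged EPA, against 9.41 CPM in aged control and 13.2 CPM in young. The pseudogene 6820431F20Rik had 1.22 CPM in aged EPA, against 5.34 CPM in aged control and 7.31 CPM in young. For the antisense gene 4930511M06Rik the values were 0.337 CPM in aged EPA, against 2.01 CPM in aged control and 1.94 CPM in young. Gm21451 lay at 0 CPM in aged EPA, against 3.996 CPM in aged control and 2.94 CPM in young, and Gm14288 at 0 CPM in aged EPA, against 1.84 CPM in aged control and 1.73 CPM in young. Gm26532 overlaps the microRNA gene Mir24-2 by 2 exonic bases.

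Properties that the choice did not use were set beside those of all compared genes. Protein-coding genes made up 53 of the 62 (85.5%, against 92.1% of compared genes), pseudogenes 3 (4.84%, against 4.89%) and noncoding RNAs 6 (9.68%, against 2.76%). Those 6 noncoding RNAs were H19, Gm26532 and Gm15564 on the higher side and 1810026B05Rik, Gm10605 and 4930511M06Rik on the lower side. The longest transcript had a median of 2736 bases in the higher genes and 3586 bases in the lower genes, against 3302.5 bases in compared genes. Median GC content was 49.3% in the higher genes and 50.7% in the lower genes, against 49.9% in compared genes. The median of mean CPM was 9.62 for the 62 genes and 13.6 for compared genes. Chromosome 2 held 10 of them (16.1%, against 8.04% of compared genes) and chromosome 4 held 7 (11.3%, against 6.29%). No test was made of these shares.

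The limits of the choice left near neighbours outside. On the higher side H19 was inside at 2.003-fold from the nearer library, with Nnat at 2.04-fold and Slc19a2 at 2.06-fold. Just outside was Mbnl1, a splicing regulator of muscle, at 306 CPM in aged EPA, 153 CPM in aged control and 146 CPM in young. Coq8a, a gene of coenzyme Q synthesis, was outside as well, at 622 CPM in aged EPA, 311 CPM in aged control and 314 CPM in young. On the lower side Dag1 was inside at 2.02-fold, with Mapk1ip1 at 2.06-fold and Tpst2 at 2.07-fold. The survival gene Bcl2l1 was outside at 1.93-fold, with 15.2 CPM in aged EPA, 30.9 CPM in aged control and 30.2 CPM in young. Zc3h11a and Mgat1, an enzyme gene of N-glycan synthesis, were outside because aged control and young differed 1.56-fold and 1.58-fold. Mgat1 stood at 32.5 CPM in aged EPA, 6.701 in aged control and 3.87 in young.

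An exact 95% interval of the log2 count ratio could be given for 53 genes against each of the other libraries. It describes the counting error of values by which the genes were chosen and supports no difference. The interval was narrow for genes with many counts, as for Dag1, and wide for Yy2 and Lenep, whose 1 count in aged EPA left intervals wider than the log2 ratios themselves. For the other 9 genes, listed at 0 in a library, none is given. The spread between mice or preparations was not measured.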

How the data were processed

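Total RNA of 1 pooled library per group was sequenced, and the submitters' processing notes name HISAT2 2.1.0, StringTie 1.3.4d, R 3.5.0 and GRCm38. The deposited values are CPM per gene as the authors calculated them, 42258 rows per table. They were made with 5 different divisors, which change from row to row and equal no library's total, and all values above 0 became whole counts within 1e-06 when multiplied by the fitting divisor. Deposited CPM of the same symbol were summed (63 rows, 42225 symbols), a mean of at least 1 CPM was required, and changes are log2 ratios of CPM + 1 with no test, since each group is 1 library. Recovered counts gave exact 95% Clopper-Pearson intervals, which cover counting error only.

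The genes and the lists were chosen with earlier results of these data known, and 26 family lists after the genes were seen. Full values were given for the 12 genes per direction furthest from the nearer library with a mean of at least 3 CPM, for genes of a list and for those with an opposite overlapping gene; others were added after their values were seen. Positions, exons and overlaps came from GENCODE M21 (GRCm38), matched by identifier for all 62 genes and all 12966 compared genes. Promoters and microRNAs came from RefSeq tables (GRCm38.p6). Python 3.11.15, numpy 2.4.6, pandas 2.3.3 and scipy 1.17.1 were used, and the steps were tested on simulated data. The 14 alternatives changed the pseudocount, filter, scaling, thresholds, repeated symbols and partner rules. Values of some genes of the lists are not reported here.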

Additional observations from a re-analysis of the deposited data

How the results depend on the processing

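No paired analysis was possible because each group is 1 library, and for the same reason no replicate could be left out. The 124 log2 changes of the 62 genes were recomputed under 6 of the 14 alternatives. Counting intervals were given for 53 of the 62 genes, so a measure in interval widths is not defined for the genes listed at 0, which are part of the 124. By more than 0.5 of the width of their counting interval, 52 of the 124 changes moved with a pseudocount of 0.1, 95 with 5, 4 with counts over each library's own total and 1 under each of the 2 other scalings. None changed sign, which the choice at 2-fold or more all but fixes. With a pseudocount of 0.1 in place of 1 there were 62 lower genes in place of 41, and with 5 there were 13 higher and 8 lower in place of 21 and 41. A mean of at least 5 CPM left 12 and 26. A 1.5-fold threshold gave 51 and 110, and a 3-fold threshold 4 and 14. These shifts follow from the settings' construction, since an added constant and a filter act on low values. With a pseudocount of 0.1, compared genes past 2-fold on the lower side of aged control numbered 135 in place of 83; against young, 166 were higher and 182 lower in place of 104 each. A pseudocount of 5 gave 47 higher and 31 lower against aged control and 52 and 42 against young. A mean of at least 5 CPM gave 58 and 53 against aged control, in place of 90 and 83, and 65 lower against young. At 1.5-fold the counts were 219 and 248 against aged control and 311 and 384 against young; at 3-fold they were 38 and 29, and 40 and 33. An overlapping gene 2-fold apart in the opposite direction was found for 1 gene (Gm38394) in place of 2. Dag1 left the set under median-of-ratios and TMM scaling (61 of 62 kept, 66 in all), and Creb1 and Mapk1ip1 left it with counts over each library's own total (60 kept, 64 in all). With a tighter limit between aged control and young, 47 were kept, without Pfkfb3, Esr1, Ago1 and Zfp62 among others. Depth limits genes with few counts: 24 of the 62 had a mean under 5 CPM.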
